A study of Mus musculus with 8 samples.

Results

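Collagens, laminins, proteoglycans and the other genes of the extracellular matrix were followed in lumbar dorsal root ganglia (DRG) of the mouse after ligation of a spinal nerve. The set holds 40 named genes, all found by symbol among the 53801 Ensembl genes of the count table: 16 collagen chains, 4 genes of the laminin network, 6 proteoglycans, 6 adhesive or matricellular proteins, 4 elastic fibre proteins, 3 cross-linking enzymes and the fibroblast receptor Pdgfra. The genes were listed by name and not by a cut on a measured value, but they were chosen with earlier results of these data known. All 40 passed the low-count filter. RNA was sequenced from 8 libraries, each made from the L3, L4 and L5 ganglia of 1 side of 3 pooled male C57BL/6J mice, per the labels' protocols. The injured libraries hold ganglia of the left side 1, 3 or 7 days after the left L4 spinal nerve was tied off with silk, and the contralateral libraries hold the right ganglia of the same mice, with 1 library per side and day. A left and a right library came from 1 pool labelled no injury and wild type. The protocol also describes sham surgery, the labels do not say that the no-injury mice had it, and the labels do not state an age. Since the 3 ganglia of a side were collected together, each injured library mixes the L4 ganglion with neighbours whose nerves were not tied. The injured side was the left in every pool.

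Total counts ran from 20488115 to 21652688 reads per library, and the limit that a count of 0 allows, 3 reads, equalled 0.139 to 0.146 CPM (counting error only). CPM is a gene's read count scaled to the library's total. Atf3, a transcription factor induced by axon injury, was at 464 to 629 CPM in the injured libraries, 110.1 to 167 CPM in the contralateral ones and 10.89 to 10.99 CPM without injury. Both no-injury libraries went against the labelled male sex, with Xist at 191 and 238 CPM and the Y-linked Kdm5d at 0, whereas the 6 operated libraries had Xist at 0.142 CPM or below and Kdm5d at 13.1 to 16.7 CPM. The no-injury libraries also carried the most skeletal muscle RNA, 279 CPM summed over 10 marker genes on the left and 1376 CPM on the right, against 92.3 to 213 CPM in the operated libraries. Pvalb alone gave 97.35 of the 114.5 CPM in the contralateral day 1 library. In the injured day 3 library it gave 60.06 of 92.3 CPM. Acta1, another of the 10, was at 59.8 and 288 CPM without injury. For days 1, 3 and 7 it was at 3.29, 5.24 and 22.2 CPM contralaterally and 3.71, 5.39 and 24.3 CPM on the injured side. The contralateral day 1 library had the most RNA of marrow and blood, 1270 CPM summed over 12 markers against 338 to 851 CPM elsewhere.

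The matrix of a ganglion lies around each neuron and its satellite glia, around blood vessels and in the capsule. Fibrillar collagens give tissue its tensile strength, while type IV collagen, laminins and nidogen build the basement membranes that Schwann cells, satellite glia, endothelial cells and perineurial cells rest on. After nerve injury, fibroblasts, Schwann cells and blood vessels of a nerve lay down new matrix, along which axons and immune cells move.

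Without injury, the most abundant members per length were small secreted proteins. On the scale of CPM per kb of exon, as the mean of both no-injury libraries, Sparc, a collagen-binding glycoprotein, stood at 253, the proteoglycan decorin (Dcn) at 107.6, osteoglycin (Ogn) at 78.1 and matrix Gla protein (Mgp) at 37.4. Among collagens, Col1a2 at 23.5, Col1a1 at 22.2, Col3a1 at 19.7 and Col4a1 at 17.9 CPM per kb led. The lowest were elastin (Eln) at 1.10, Loxl2 at 0.974 and versican (Vcan) at 0.501 CPM per kb. Together the 40 genes took 4108 and 3929 CPM without injury. For days 1, 3 and 7 the contralateral sums were 2297, 2534 and 3657 CPM and the injured sums 2970.0, 6501 and 5023 CPM, which is 0.230% to 0.650% of all reads. The summed level was lowest in the contralateral day 1 library, which was also the lowest library for 25 single genes (11.7% of all genes), and highest in the injured day 3 library, the highest for 31 (21.8% of all genes). In such bulk samples, fewer cells of a type and less RNA per cell cannot be told apart.

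**Figure D1:**
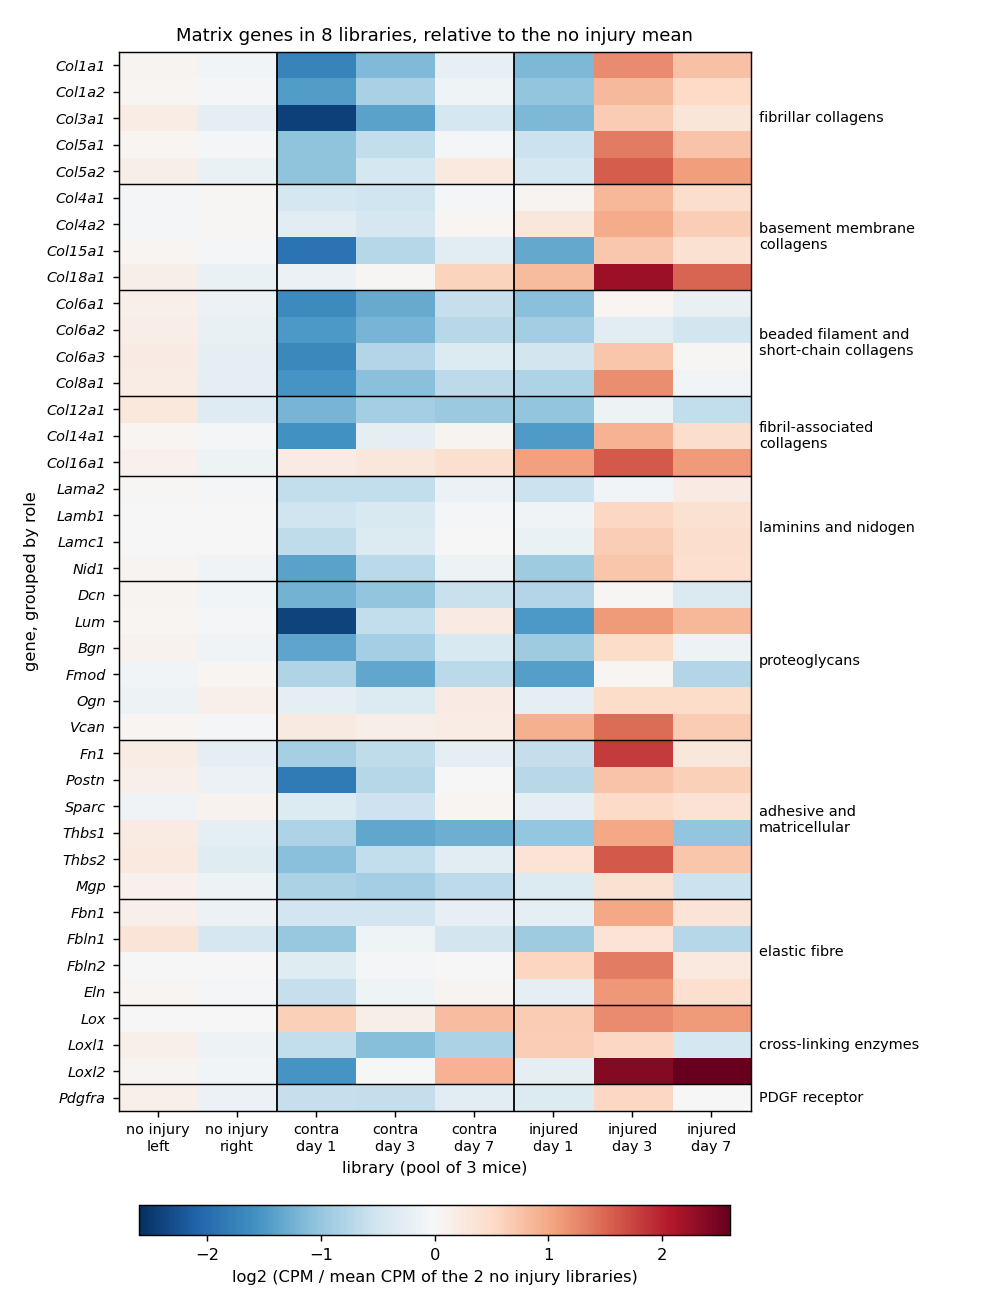
Level of each of the 40 genes in the 8 libraries as log2 of CPM over the mean CPM of both no-injury libraries (colour scale), with genes grouped by role in rows and libraries in columns. The injured day 3 column is the highest of the 8 for 31 genes, and the contralateral day 1 column is the lowest for 25.

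Of the 40 matrix genes, 22 passed the test as higher on the injured side, and the other 18 did not pass. The fit of injured against uninjured ganglia within pools called these 22 higher and 0 lower (edgeR quasi-likelihood test, Benjamini-Hochberg adjusted p under 0.05 over all genes tested), where 10.1% of all 16244 genes tested were called higher and 8.02% lower. At an unadjusted p under 0.05, 34 were higher (18.5% of all genes) and 0 lower (16.2%), and DESeq2 called 31 higher (8.08%) and 0 lower. The fitted log2 difference was above 0 for all 40 genes, against 52.5% of all genes, and its median was 0.82, a 1.76-fold difference, against 0.02 over all genes. The largest called differences were those of Loxl2 (3.57-fold), Thbs2 (2.94-fold), Col18a1 (2.57-fold) and Col3a1 (2.56-fold). The count fell to 7 with no replicate block (9.59% of all genes in that fit), to 8 without the low-count filter (5.77%) and to 9 without the no-injury pool (4.76%). It was 11 without the day 1 pool (14.5%), 19 without the day 3 pool (3.96%) and 14 without the day 7 pool (2.90%). Over 10 alternative fits, each of the 22 calls held in 3 (Dcn) to 9 (Col16a1 and Vcan). With body side as a further term, which only the no-injury pool can set, 0 of the 40 were called (6 at an unadjusted p under 0.05), and 6 genes of the whole table were (0.0369%). Without injury, the left library was above the right one in 31 of the 40 genes, against 49.2% of all genes, and 2 of them, Col12a1 and Fbln1, were at least 1.5-fold higher (1.26%).

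**Figure D2:**
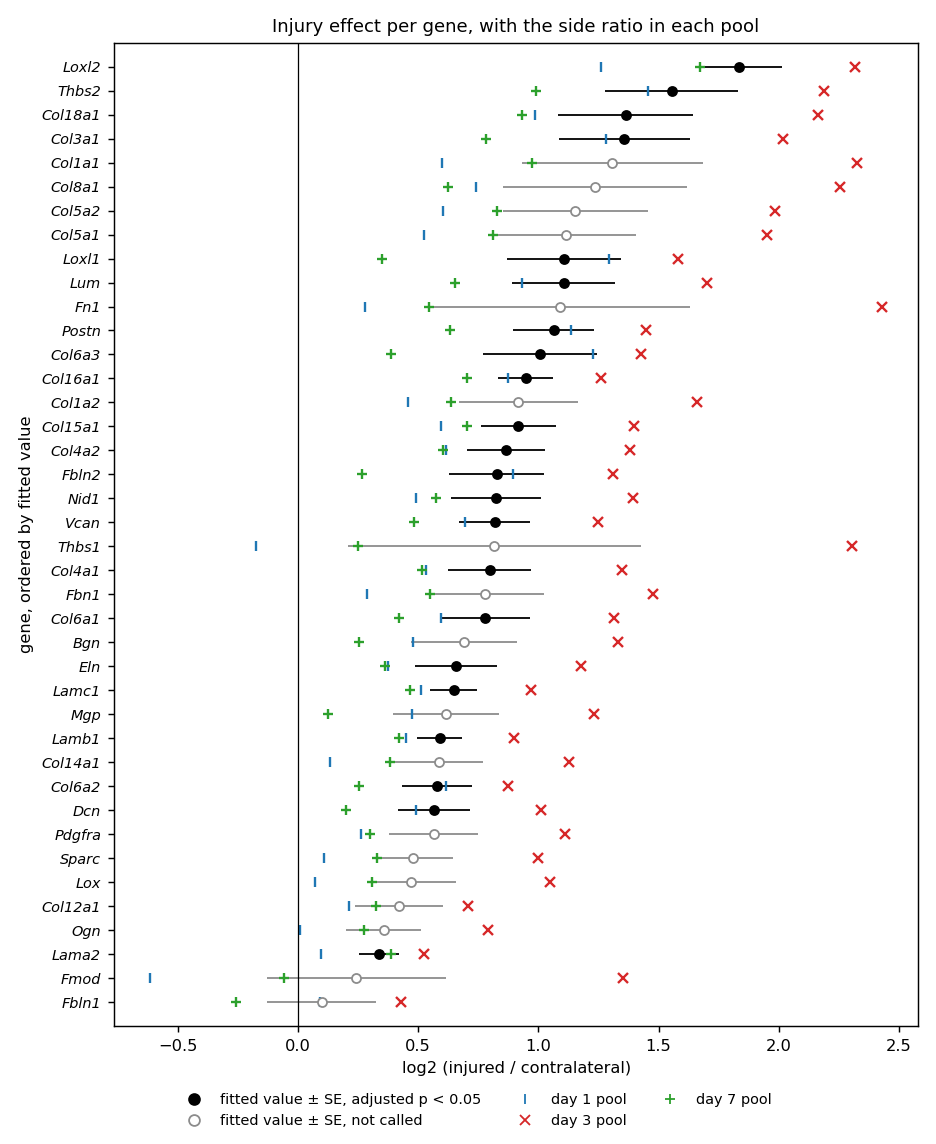
Fitted log2 difference between injured and uninjured ganglia for each gene (circles, bars are standard errors, filled where the adjusted p is under 0.05), with the injured over contralateral log2 ratio of the day 1, day 3 and day 7 pools as coloured marks. All 40 circles lie above 0, and the day 3 mark is the rightmost of the 3 in every gene.

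Promoter sequences are shown for the called member with the largest difference among the fibrillar, the fibril-associated and the matricellular genes. They are the 250 bases before the annotated start, 5′ to 3′ on the gene's strand, from RefSeq on GRCm38.p6. Capitals mark matches, on either strand, to 4 motifs searched by letters alone. The box bound by NF-Y was searched as CCAAT. The site of AP-1 factors was searched as TGANTCA. The box of Sp factors, called GC box below, was searched as GGGCGG. The TATA box was searched as TATAAA. The sequences lie at chr1:45311288-45311537, strand + for Col3a1, at chr4:130047590-130047839, strand + for Col16a1 and at chr17:14694263-14694512, strand − for Thbs2.
Col3a1: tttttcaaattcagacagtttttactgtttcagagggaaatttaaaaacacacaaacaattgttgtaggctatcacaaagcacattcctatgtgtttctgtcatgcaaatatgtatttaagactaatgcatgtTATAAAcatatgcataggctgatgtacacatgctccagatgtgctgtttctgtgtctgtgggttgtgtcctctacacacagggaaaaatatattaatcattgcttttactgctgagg
Col16a1: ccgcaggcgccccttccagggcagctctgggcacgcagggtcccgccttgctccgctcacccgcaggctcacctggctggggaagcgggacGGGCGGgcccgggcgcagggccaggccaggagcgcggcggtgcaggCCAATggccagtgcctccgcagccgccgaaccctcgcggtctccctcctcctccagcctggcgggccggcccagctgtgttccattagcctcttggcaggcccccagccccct
Thbs2: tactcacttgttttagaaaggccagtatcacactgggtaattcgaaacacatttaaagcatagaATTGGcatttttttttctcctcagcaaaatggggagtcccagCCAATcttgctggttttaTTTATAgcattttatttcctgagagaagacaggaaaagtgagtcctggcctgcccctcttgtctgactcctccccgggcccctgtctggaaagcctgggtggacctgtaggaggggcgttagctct

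The 3 promoters differ in make-up. Col3a1 is rich in A and T, with 35.2% G or C and a letter match to the TATA box 117 to 112 bases before the start. Col16a1 has 75.6% G or C, a CCAAT box and a GC box, and no TATA box in this window. Thbs2 has 46.8% G or C and letter matches to 2 CCAAT boxes and a TATA box. The TATA match and the first CCAAT match lie on the opposite strand. RefSeq windows that ran from 250 bases before the start to 50 after it were at hand for 26 of the 40 members. A CCAAT box was in 11 of them (42.3%, against 37.9% of all 27025 promoters), a GC box in 15 (57.7% against 35.9%), a TATA box in 3 (11.5% against 14.2%) and an AP-1 site in 1, that of Col6a1 (3.85% against 7.93%).

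The fibrillar collagens, which assemble into the thick fibres of connective tissue, comprise the type I chains Col1a1 and Col1a2, the type III chain Col3a1 and the type V chains Col5a1 and Col5a2. Levels below run in the order left and right for no injury and days 1, 3 and 7 for each operated side. Col3a1 (chr1:45311538-45349706) was at 223 and 165 CPM without injury, 35.8, 74.0 and 141 CPM contralaterally and 85.8, 308 and 242 CPM on the injured side. Every pool had more on the injured side, but the injured day 1 library lay below the contralateral day 7 library, so the groups overlapped. The fitted log2 difference was 1.36 ± 0.27 (SE), and Col3a1 was the fibrillar collagen called higher (edgeR, adjusted p = 0.0348). Col5a1, which sets fibre diameter together with Col5a2, was at 32.4 and 30.4 CPM without injury, 15.1, 20.1 and 30.2 CPM contralaterally and 21.4, 80.0 and 52.8 CPM on the injured side. Col1a2 was at 301 and 283 CPM without injury, 107, 163 and 269 CPM contralaterally and 144, 527 and 418 CPM on the injured side. Both were highest in the injured day 3 library and lowest in the contralateral day 1 library, and Col5a1 overlaps an antisense gene whose reads cannot be told apart from its own. Their log2 differences of 1.12 ± 0.29 and 0.92 ± 0.25 (SE) missed the threshold (edgeR, adjusted p = 0.0629 and 0.0631). So did those of Col5a2 and Col1a1, 1.15 ± 0.30 and 1.31 ± 0.38 (SE; edgeR, adjusted p = 0.0670 and 0.0898). Without the day 3 pool, the fit called Col1a1, Col1a2, Col5a1 and Col5a2 higher and no longer called Col3a1. DESeq2 called all 5.

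Within pools, Col1a1 was 1.52, 5.01 and 1.96 times higher on the injured side at days 1, 3 and 7. Its standard error of 0.38 takes in that spread between days. On the per-length scale the ratio of Col1a1 to Col1a2 mRNA was 0.768 to 0.965 in the no-injury, contralateral and injured day 1 libraries, and 1.22 and 1.11 in the injured day 3 and day 7 libraries. The annotated exon lengths set the size of this ratio, so it can be read between libraries and not against 1.

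**Figure D3:**
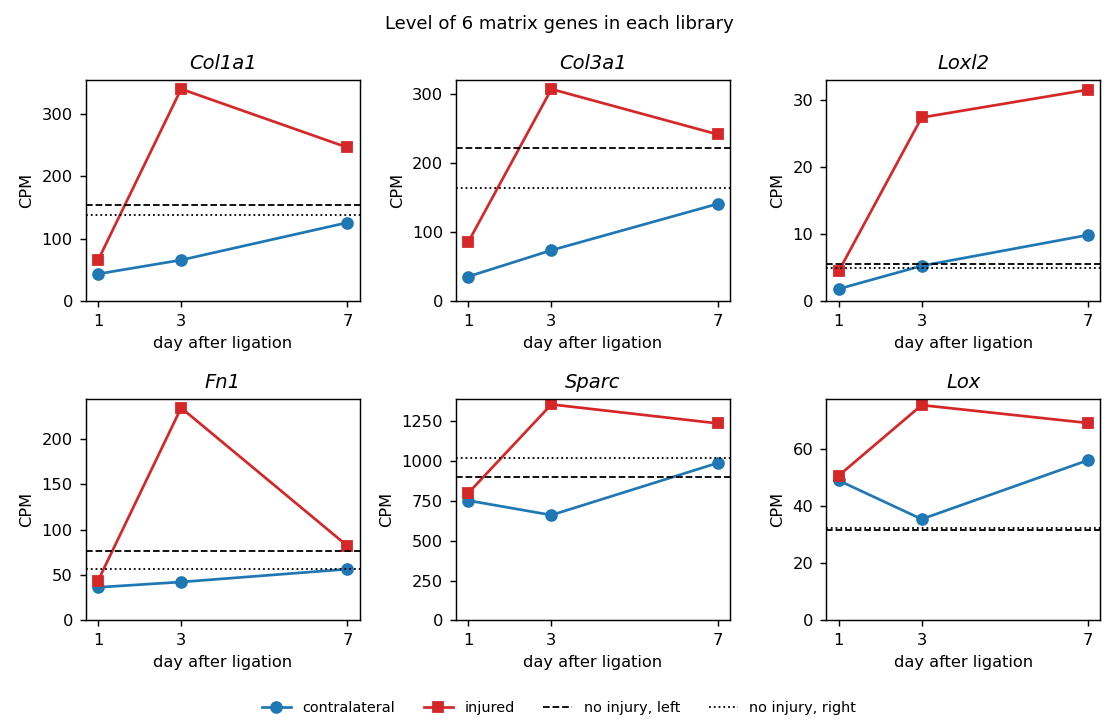
CPM of 6 matrix genes against the day after ligation in the contralateral (blue circles) and injured (red squares) libraries, 1 pool of 3 mice per day, with the left and right no-injury libraries as dashed and dotted lines. The injured day 3 library is the highest for Col1a1, Col3a1, Fn1, Sparc and Lox, while Loxl2 is highest in the injured day 7 library.

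All 4 basement membrane collagens were called higher on the injured side. Col15a1, which sits between basement membrane and fibrils, was at 56.5 and 52.6 CPM without injury, 14.5, 32.8 and 44.2 CPM contralaterally and 21.6, 88.8 and 71.7 CPM on the injured side. Its injured and contralateral libraries overlapped, and its log2 difference was 0.92 ± 0.16 (SE; edgeR, adjusted p = 0.0168). Col4a2 was at 76.5 and 79.1 CPM without injury, 63.4, 57.1 and 80.1 CPM contralaterally and 95.6, 153 and 121 CPM on the injured side. Col4a1, its partner in the main type IV network, was at 131 and 135 CPM without injury, 97.7, 93.1 and 129 CPM contralaterally and 139, 244 and 184 CPM on the injured side. For both, every injured library lay above every contralateral and every no-injury library. The log2 differences were 0.86 ± 0.16 for Col4a2 and 0.80 ± 0.17 for Col4a1 (SE; edgeR, adjusted p = 0.0224 and 0.0340). Col4a1 (chr8:11198423-11312826, minus strand) and Col4a2 (chr8:11312805-11449287, plus strand) lie head to head and share 22 bases on GRCm38. No source states whether strand was used in counting, so reads from that overlap cannot be assigned, and the per-length ratio of Col4a1 to Col4a2 stayed within 1.29 to 1.52 over the 8 libraries. Col18a1, the source of endostatin, had a 2.57-fold difference, and it was at 29.3 and 23.6 CPM without injury, 23.8, 26.9 and 39.4 CPM contralaterally and 46.5, 124 and 75.0 CPM on the injured side. Here too all 3 injured libraries exceeded the other 5 (edgeR, adjusted p = 0.0369).

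Type VI collagen forms beaded filaments near cell surfaces. Its 3 chains were called higher on the injured side, while Col6a1 and Col6a2 had their highest level in the left no-injury library. Col6a3 was at 27.3 and 20.1 CPM without injury, 7.37, 14.0 and 18.6 CPM contralaterally and 17.1, 38.9 and 24.1 CPM on the injured side. Col6a1 was at 55.7 and 45.9 CPM without injury, 16.1, 20.5 and 33.3 CPM contralaterally and 23.9, 52.5 and 44.5 CPM on the injured side. Col6a2 was at 59.4 and 45.9 CPM without injury, 18.6, 22.8 and 32.0 CPM contralaterally and 28.1, 42.9 and 38.0 CPM on the injured side. Every pool had more of each chain on the injured side, while for Col6a2 all 3 injured libraries lay below both no-injury libraries. The log2 differences between sides were 1.01 ± 0.24, 0.78 ± 0.19 and 0.58 ± 0.15 (SE; edgeR, adjusted p = 0.0420, 0.0423 and 0.0436). Each of these 3 calls held in 4 of 10 alternative fits. With no replicate block the differences of Col6a1 and Col6a2 were 0.23 and 0.02 (edgeR, adjusted p = 0.750 and 0.977). Col8a1, a short-chain collagen of vessel walls, was 1.67, 4.77 and 1.54 times higher on the injured side at days 1, 3 and 7 and missed the threshold (log2 1.24 ± 0.38, SE; edgeR, adjusted p = 0.0957).

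The fibril-associated collagens decorate larger fibres. Col16a1 (chr4:130047840-130099283) was at 50.6 and 42.8 CPM without injury, 53.8, 57.4 and 62.2 CPM contralaterally and 97.1, 141 and 101 CPM on the injured side. All 3 injured libraries exceeded all 3 contralateral libraries, which in turn exceeded both no-injury libraries. Its log2 difference between sides was 0.95 ± 0.12 (SE; edgeR, adjusted p = 0.00503), and the call was lost in 1 of 10 alternative fits, the one with a side term. Col14a1 was at 29.0 and 27.2 CPM without injury, 9.39, 23.5 and 29.7 CPM contralaterally and 10.2, 52.7 and 38.5 CPM on the injured side. Col12a1 was at 64.1 and 41.8 CPM without injury, 22.8, 28.9 and 27.1 CPM contralaterally and 26.1, 48.5 and 33.9 CPM on the injured side. Both were lowest in the contralateral day 1 library and neither was called between sides (log2 0.59 ± 0.18 and 0.42 ± 0.18, SE; edgeR, adjusted p = 0.0779 and 0.169). Col12a1 was the member with the second widest gap between the no-injury libraries, 1.51-fold from left to right.

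Laminins are cross-shaped heterotrimers of basement membranes, and nidogen bridges them to type IV collagen. All 4 genes of this group were called higher on the injured side. Lamc1, the gamma chain shared by most laminins, was at 81.7 and 81.1 CPM without injury, 51.2, 63.3 and 80.8 CPM contralaterally and 71.9, 127 and 111 CPM on the injured side. Lamb1 was at 111 and 109.7 CPM without injury, 77.2, 84.4 and 109 CPM contralaterally and 104, 161 and 145 CPM on the injured side. Lama2, the alpha chain of muscle and Schwann cell laminin, was at 47.5 and 45.7 CPM without injury, 30.1, 29.9 and 41.8 CPM contralaterally and 31.6, 44.1 and 54.3 CPM on the injured side. Lamc1 and Lamb1 were higher on the injured side in each pool by similar ratios, 1.43, 1.96 and 1.38 for Lamc1 and 1.37, 1.86 and 1.34 for Lamb1 at days 1, 3 and 7. Lama2 was highest in the injured day 7 library, unlike most members. The log2 differences were 0.65 ± 0.10, 0.59 ± 0.09 and 0.34 ± 0.08 (SE; edgeR, adjusted p = 0.00822, 0.00913 and 0.0302). Nid1 had a 1.77-fold difference (log2 0.82 ± 0.19, SE; edgeR, adjusted p = 0.0411). Per length, the ratio of Lamb1 to Lamc1 stayed within 1.06 to 1.26 over the 8 libraries, while that of Nid1 to Lamc1 ran from 1.11 in the injured day 1 library to 1.97 in the injured day 3 library.

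Of the 6 proteoglycans, 3 were called higher. Vcan, a large hyaluronan-binding proteoglycan of provisional matrix, was at 7.47 and 7.02 CPM without injury, 8.55, 8.04 and 8.24 CPM contralaterally and 13.7, 19.8 and 11.5 CPM on the injured side. Its injured libraries lay above the other 5, and the call was lost in 1 of 10 alternative fits, the one with a side term (log2 0.82 ± 0.15, SE; edgeR, adjusted p = 0.0125). Lum, a regulator of collagen fibril spacing, was at 62.3 and 57.7 CPM without injury, 11.4, 38.6 and 70.0 CPM contralaterally and 21.4, 129 and 109.6 CPM on the injured side. Dcn, which binds collagen fibrils and TGF-beta, was at 657 and 599.8 CPM without injury, 269, 309.6 and 423 CPM contralaterally and 372, 640.2 and 483 CPM on the injured side. Lum in the contralateral day 1 library was at 0.192 times its no-injury mean, and Dcn was highest in the left no-injury library. Their log2 differences between sides were 1.10 ± 0.21 and 0.56 ± 0.15 (SE; edgeR, adjusted p = 0.0287 and 0.0471), and DESeq2 did not call Dcn. Bgn, Ogn and Fmod were not called (edgeR, adjusted p = 0.0947, 0.168 and 0.692). Fmod was 0.653, 2.56 and 0.960 times the contralateral level at days 1, 3 and 7.

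Among adhesive and matricellular proteins, Postn and Thbs2 were called higher. Postn, periostin, which binds collagen and integrins, was at 48.2 and 39.6 CPM without injury, 12.3, 26.3 and 43.4 CPM contralaterally and 26.8, 73.9 and 67.0 CPM on the injured side. Thbs2, a thrombospondin that restrains vessel growth, was at 19.0 and 12.8 CPM without injury, 7.51, 10.2 and 13.2 CPM contralaterally and 20.4, 48.0 and 26.2 CPM on the injured side. Sparc was at 897 and 1019 CPM without injury, 752, 661 and 988 CPM contralaterally and 799, 1355 and 1236 CPM on the injured side. All 3 injured libraries of Thbs2 exceeded the other 5, whereas injured and contralateral libraries overlapped for Postn and Sparc. The log2 differences were 1.06 ± 0.17 for Postn, 1.55 ± 0.28 for Thbs2 and 0.48 ± 0.17 for Sparc (SE; edgeR, adjusted p = 0.0140, 0.0233 and 0.103). Fn1, fibronectin, was at 76.6 and 56.9 CPM without injury, 36.5, 42.4 and 56.5 CPM contralaterally and 43.6, 234 and 82.2 CPM on the injured side. Thbs1, an activator of latent TGF-beta, was at 43.4 and 31.4 CPM without injury, 21.3, 14.7 and 15.5 CPM contralaterally and 18.6, 75.1 and 18.4 CPM on the injured side. In both genes 1 library stood above the rest, that of the injured side at day 3, and neither was called (edgeR, adjusted p = 0.257 and 0.428). Mgp, an inhibitor of calcification, had a log2 difference of 0.62 ± 0.22 (SE; edgeR, adjusted p = 0.118).

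Of the elastic fibre genes, Eln and Fbln2 were called higher. Eln, elastin itself, was at 9.26 and 8.54 CPM without injury, 5.87, 8.28 and 9.37 CPM contralaterally and 7.52, 19.3 and 12.0 CPM on the injured side. Fbln2, a fibulin, was at 92.7 and 93.8 CPM without injury, 74.6, 91.9 and 92.9 CPM contralaterally and 136, 234 and 111 CPM on the injured side. Fbn1, the backbone of microfibrils, was at 28.7 and 23.4 CPM without injury, 18.6, 18.3 and 22.6 CPM contralaterally and 22.3, 52.5 and 32.9 CPM on the injured side. All 3 injured libraries of Fbln2 lay above the other 5, and the day 3 library was the highest for each of these genes. The log2 differences were 0.66 ± 0.17, 0.83 ± 0.20 and 0.78 ± 0.24 (SE; edgeR, adjusted p = 0.0383, 0.0474 and 0.0886). Fbln1 had the smallest fitted difference of the 40 genes (log2 0.10 ± 0.23, SE; edgeR, adjusted p = 0.793).

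Lysyl oxidases cross-link collagen and elastin. Loxl2 (chr14:69609068-69695834) had the lowest p of the set, and it was at 5.54 and 4.99 CPM without injury, 1.83, 5.28 and 9.88 CPM contralaterally and 4.44, 27.4 and 31.6 CPM on the injured side. In contrast to most members it was higher at day 7 than at day 3 on the injured side, and its contralateral level at day 7 was 1.87 times the no-injury mean. Its log2 difference between sides was 1.84 ± 0.18 (SE; edgeR, adjusted p = 0.00218). Loxl1 was at 7.04 and 5.87 CPM without injury, 4.13, 2.99 and 3.67 CPM contralaterally and 10.1, 9.36 and 4.69 CPM on the injured side. Lox was at 31.8 and 32.4 CPM without injury, 49.1, 35.5 and 56.2 CPM contralaterally and 50.7, 75.5 and 69.2 CPM on the injured side. Loxl1 was highest in the injured day 1 library, and its injured libraries lay above all contralateral ones, while all 6 operated libraries of Lox exceeded both no-injury libraries. Loxl1 was called higher (log2 1.11 ± 0.24, SE; edgeR, adjusted p = 0.0228) and Lox was not (log2 0.47 ± 0.18, SE; edgeR, adjusted p = 0.136). Pdgfra, the receptor that marks fibroblasts, was at 23.8 and 19.4 CPM without injury, 14.2, 14.1 and 17.6 CPM contralaterally and 16.8, 31.3 and 21.5 CPM on the injured side. Its injured level was above the contralateral level in each pool, by 1.201, 2.16 and 1.231 times, and it was not called (edgeR, adjusted p = 0.0859).

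The difference between sides was widest at day 3. Each day has 1 pool, and day 3 was not set against the other days in a test of its own. Injured over contralateral, the 40 genes had a median ratio of 1.43 on day 1, 2.55 on day 3 and 1.36 on day 7, and left over right without injury it was 1.10. At day 3, 32 of the 40 genes were at least 2-fold higher on the injured side, against 6.40% of the genes with at least 50 reads, compared with 6 at day 1 (0.889%) and 1, Loxl2, at day 7 (3.16%). The day 3 ratio was the highest of the 3 days in 40 of 40 genes, against 34.0% of all genes. The injured library exceeded the contralateral one in all 3 pools in 37 genes, against 28.4%, the exceptions being Fmod, Thbs1 and Fbln1. All 3 injured libraries lay above all 3 contralateral libraries in 9 genes, against 14.7% of all genes: Col4a1, Col4a2, Col18a1, Col16a1, Vcan, Thbs2, Mgp, Fbln2 and Loxl1. The widest ratios at day 3 were those of Fn1 (5.38), Col1a1 (5.01), Loxl2 (4.99), Thbs1 (4.94) and Col8a1 (4.77).

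A linear trend of the side difference with log2 of the day called 0 of the 40 genes in either direction (edgeR; 0.0% of all genes called higher and 0.0% lower), and 0 at an unadjusted p under 0.05 (3.67% and 4.33%). DESeq2 called 0 of the 40 as well (0.209% of all genes higher and 0.0616% lower). The side ratio was highest at the middle day in all 40 genes, and a linear trend cannot decide on such a peak. On the injured side, the day 3 library was the highest of the 3 days in 36 genes, against 34.8% of all genes, the exceptions being Lama2, Ogn, Loxl1 and Loxl2. The lowest p values were those of Loxl1 (log2 per doubling of the day -0.31 ± 0.18, SE), Lama2 (0.10 ± 0.06) and Col6a3 (-0.30 ± 0.18), with edgeR adjusted p values of 0.722, 0.748 and 0.750. With 1 operated pool left out, the trend sets a pool of 1 day against a pool of 1 other day, and the only spread left is that between the no-injury sides, so the counts describe those pools and not the days. They were 22 higher at day 3 than at day 1 (3.93% of all genes), 16 lower at day 7 than at day 3 (0.498%) and 1 lower at day 7 than at day 1 (1.45%).

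Set against the no-injury pool, the contralateral ganglia had a fitted level below it in 35 of the 40 genes, and 2 of these passed the test. The comparison called those 2 lower in contralateral than in no-injury ganglia and 0 higher (edgeR; 0.155% of all genes lower and 0.125% higher). At an unadjusted p under 0.05, 10 were lower, against 4.74% of all genes, and 1 was higher, Col16a1 (4.10%). The fitted log2 difference was above 0 in 5 genes, Col18a1, Col16a1, Vcan, Lox and Loxl2, against 51.2% of all genes, and its median was -0.54. Mgp was at 48.2 and 40.6 CPM without injury, 25.2, 24.2 and 27.9 CPM contralaterally and 34.6, 58.4 and 30.3 CPM on the injured side. Its 3 contralateral libraries lay below both no-injury libraries, with a log2 difference of -0.78 ± 0.10 (SE; edgeR, adjusted p = 0.0241). Col12a1, whose values are given above, had a log2 difference of -0.996 ± 0.13 (SE; edgeR, adjusted p = 0.0358), likewise without overlap. The fit has 2 residual degrees of freedom, and leaving out 1 library leaves 1. With the no-injury libraries as separate samples, 1 of the 2 calls was lost. The count was 14 lower (3.07% of all genes) and 1 higher (2.7%) without the contralateral day 1 library, 0 lower (0.018%) without that of day 3 and 4 lower (0.385%) without that of day 7. The no-injury pool also differed in Xist, Kdm5d and muscle RNA, as given above, and the part of these in the result was not tested.

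The gap to the no-injury pool was widest at day 1. Contralateral over no injury, the median ratio of the 40 genes was 0.544 on day 1, 0.654 on day 3 and 0.908 on day 7, and over all genes it was 1.01, 0.998 and 1.01. At least 2-fold lower were 19 genes at day 1 (1.88% of genes), 8 at day 3 (1.61%) and 1, Thbs1, at day 7 (0.866%). All 3 contralateral libraries lay below both no-injury libraries in 24 genes, against 19.5% of all genes, and above them in 3, Col16a1, Vcan and Lox, against 17.9%. The contralateral level was ordered day 1, day 3, day 7 from low to high in 25 genes, against 18.5%. Col3a1 at 0.189 and Lum at 0.192 were the lowest at day 1. The contralateral day 1 library was the one with the most marrow and blood RNA, and the part of this in its low matrix levels was not tested.

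The injured day 1 level was below the no-injury pool in most members and the day 3 level above it, as values without a test. Set against the no-injury pool, the 3 injured libraries gave 0 called genes in either direction (edgeR; 0.112% of all genes higher and 0.0236% lower). The count was 4 higher (7.72%) and 0 lower (6.20%) at an unadjusted p under 0.05, and DESeq2 called 3 higher (2.87%). The fitted log2 difference was above 0 in 30 genes, against 51.8% of all genes. The 3 lowest p values were those of Col16a1 (log2 1.28 ± 0.25, SE), Lox (1.02 ± 0.24) and Vcan (1.05 ± 0.35), with edgeR adjusted p values of 0.210, 0.240 and 0.324. Relative to the no-injury mean, the median ratio was 0.723 on day 1, 1.73 on day 3 and 1.32 on day 7. At least 2-fold lower were 7 genes on day 1 (2.16% of genes), and at least 2-fold higher were 16 on day 3 (6.08%) and 5 on day 7 (4.96%). All 3 injured libraries exceeded both no-injury libraries in 8 genes, against 24.0% of all genes: Col4a1, Col4a2, Col18a1, Col16a1, Vcan, Thbs2, Fbln2 and Lox. They lay below both in 1, Col6a2, against 26.0%. The injured day 1 library lay below both no-injury libraries in 31 genes, against 46.6% of all genes, and the injured day 3 library lay above both in 34, against 45.8%. Without the injured day 1 library, 13 genes were called higher (9.69% of all genes). These 2 comparisons share the no-injury pool, so their values are not independent of each other.

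**Figure D4:**
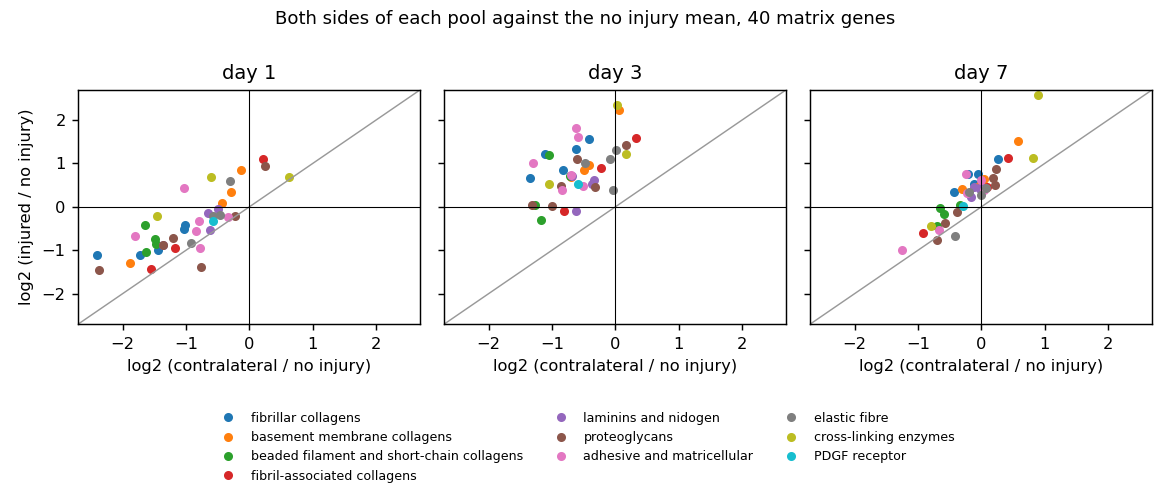
Each point is 1 of the 40 genes, placed by its log2 ratio to the no-injury mean on the contralateral side (horizontal) and the injured side (vertical) for the pools of day 1, day 3 and day 7, coloured by role, with the diagonal marking equal levels. Most points lie left of 0 at day 1 and above 0 at day 3, and most lie above the diagonal on each day.

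Genes that act on the matrix were counted from further lists. Of 25 genes of collagen synthesis and secretion, 10 were called higher and 2 lower (median log2 0.29), with Plod3, Pcolce, Bmp1 and P4ha3 at the lowest p. The lysyl hydroxylase Plod3 had a log2 difference of 0.58 ± 0.07 (SE; edgeR, adjusted p = 0.00334), and the procollagen proteinase Bmp1 one of 1.08 ± 0.15 (SE; edgeR, adjusted p = 0.0104). Of 24 further collagens tested, 6 were called higher and 0 lower, with Col7a1, Col6a5, Col27a1 and Col28a1 at the lowest p. Of 19 other laminin and basement membrane genes, Nid2, Lama5, Lama4 and Hspg2 were higher and Papln was lower. Elastic fibre and microfibril genes outside the set had 9 of 18 higher and 0 lower, including Efemp1, Efemp2, Ltbp4 and Ltbp1. Of 9 other small leucine-rich proteoglycans, 1 was higher, Prelp, and of 6 other cross-linking genes, 1 was higher, Tgm1. Tgm1 had few reads, at 0.241 and 0.185 CPM without injury and 0.704, 0.187 and 0.424 CPM contralaterally. On the injured side it was at 1.61, 1.70 and 0.710 CPM. Other matricellular genes had 5 of 19 higher, Ccn4 and Tnxb first, and 2 lower, Spock3 and Comp. The hyaluronan list went both ways, with Cd44, a hyaluronan receptor, higher and the link proteins Hapln1 and Hapln4 lower among 11 genes (median log2 -0.28). Of 16 matrix receptors, 8 were higher and 0 lower, led by Itgb1, the common beta integrin (log2 0.60 ± 0.08, SE; edgeR, adjusted p = 0.00446), with Sdc4, Ddr2 and Sdc1. Of 19 genes of TGF-beta and PDGF signalling to fibroblasts, Tgfbr2, Tgfbr3, Smad2 and Lrrc32 were higher and Scx, a tendon transcription factor, was lower. The shares of all genes called, 10.1% higher and 8.02% lower, are the background for each of these counts.

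Markers of the cells that make or surround the matrix were counted in the same fit. Fibroblast markers outside the set had 2 of 13 called higher (Ly6a and Scara5) and 0 lower. Their summed level was 855 to 927 CPM without injury, 735 to 793 CPM contralaterally and 758 to 888 CPM on the injured side. Most of this sum came from Gsn and Abca8a, at 351 and 319 CPM in the left no-injury library. Over the list, the median log2 ratio of injured over contralateral was 0.27, 0.47 and 0.144 at days 1, 3 and 7. Perineurial markers had 3 of 8 higher (Slc2a1, Itgb4 and Cldn1). Their sum was 252 to 255 CPM without injury, 230 to 264 CPM contralaterally and 306 to 371 CPM in injured ganglia. Slc2a1 had the widest gap between sides, with injured levels of 101, 163 and 138.5 CPM for days 1, 3 and 7. Its contralateral levels were 74.4, 73.2 and 70.2 CPM. Moxd1 was above its contralateral level at day 1. It was below that level at day 3 (28.99 against 40.78 CPM) and day 7 (24.05 against 35.21 CPM). Dural and arachnoid markers had 0 of 8 called, at 427 to 432 CPM without injury, 202 to 316 CPM contralaterally and 173 to 368 CPM on the injured side. Most of this sum came from Ptgds, at 362.5 CPM in the left no-injury library and 295.6 CPM in the injured day 3 library. Endothelial markers had 1 of 12 higher (Kdr), mural markers 2 of 10 (Cspg4 and Mcam) and adipocyte markers 1 of 6 (Lipe), with 0 lower in each. For days 1, 3 and 7, endothelial markers summed to 227, 321 and 189.6 CPM in injured ganglia, to 197, 176 and 189 CPM contralaterally, and to 226 and 209 CPM without injury. Mural markers summed to 538 to 540.2 CPM without injury, 528 to 549 CPM contralaterally and 514 to 627 CPM on the injured side, and both lists were highest in the injured day 3 library, as most matrix genes were. Most of the mural sum came from Rgs5 and Mcam, which went opposite ways at day 3. Rgs5 was at 135 CPM on the injured side against 166.6 CPM contralaterally, and Mcam at 371 against 307 CPM. Over the mural list, the median log2 ratio of injured over contralateral at day 3 was 0.883. Bone markers had 0 of 5 tested called and summed to 16.9 to 29.6 CPM over all libraries, and 2 of the 10 bone markers, like 2 of the 10 cartilage markers, had fewer than 3 reads in every library. Cartilage markers had 2 of 7 lower, Hapln1 and Comp, and marrow and blood markers 0 of 12 called.

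Macrophage RNA was also highest on the injured side at days 3 and 7. Macrophage markers had 4 of 14 called higher (Cd163, Ms4a7, Gpnmb and Aif1) and 0 lower. For days 1, 3 and 7 they summed to 119.9, 485 and 488 CPM in injured ganglia, to 162, 137 and 235 CPM contralaterally, and to 238 and 169 CPM without injury. The 9 Schwann cell markers reported here summed to 4233, 7268 and 7618 CPM on the injured side, 4129, 4333 and 7071 CPM contralaterally, and 5171 and 7104 CPM without injury. At days 3 and 7 the injured sums exceeded the contralateral day 7 and right no-injury ones by less than the no-injury sides differed. On both lists the contralateral day 7 library was the highest contralateral one, as it was for 35 of the 40 matrix genes, against 35.8% of all genes. Satellite glia markers had 2 of 8 higher (Lgi4 and Glul) and 1 lower (Cadm2), neuron markers had 3 of 10 lower (Isl1, Snap25 and Rbfox3) and 0 higher, and skeletal muscle markers had 0 of 10 called. The neuron markers that define the tissue summed to 16840 to 19060 CPM in the 8 libraries. This sum joins genes that went opposite ways. In the day 7 pool, Tubb3 and Stmn2 were at 4240 and 3641 CPM on the injured side against 2800 and 2241 CPM contralaterally. Nefl and Snap25 were at 4905 and 1167 CPM against 6329 and 1995 CPM. The part of these cell types in the matrix levels was not tested.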

How the data were processed

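RNA-seq of 8 pooled DRG libraries was used. Gene values are whole-number read counts as the authors deposited them; the submitters' processing notes name cutadapt 1.16, STAR 2.5.4a, featureCounts 1.6.3 and DESeq2 with GRCm38, without their roles. Use of strand and the annotation release are not stated. Symbols, exon lengths and positions came from GENCODE M21 (GRCm38), which matched 53706 of 53801 IDs, and promoters from RefSeq. The members and gene lists were chosen with earlier results of these data known. In each role, the members with the lowest injury p (up to 3) are given in every library; from other lists, up to 4 genes with the lowest p are named. A Schwann cell marker is not reported here.

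Tests were run with edgeR 4.0.16 (R 4.3.3; quasi-likelihood, robust, TMM, minimum count 10, Benjamini-Hochberg at 0.05). The injury effect was fitted over 8 libraries with the pool as a block (3 residual degrees of freedom), because both sides come from the same mice by design; deviations from the group means correlated by 0.29, -0.0852 and 0.378 between the sides at days 1, 3 and 7. The trend and the comparisons with the no-injury pool have 2; that pool was summed to 1 sample, taken to vary as the operated ones do. The p-values of the injury effect and the trend reflect the spread between operated pools and the left-right difference of the no-injury pool. Those of the comparisons with the no-injury pool reflect only the spread between operated pools. Side ratios used log2 CPM with a prior count of 2 and no test. Alternatives were DESeq2 1.42.0, limma-voom 3.58.1, RLE factors, no filter, no block, a side term and leaving out pools. The fits were also run on simulated counts with known fold changes. That simulation had no differences between pools and, for the injury effect, the same fold at each day. It cannot tell how the fits behave where side ratios vary between days, as they did here.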

Additional observations from a re-analysis of the deposited data

Results flagged for a closer look

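The side difference went opposite ways at different days in 3 matrix genes. Each day has 1 pool and the change of sign was not tested. The linear trend of the side difference with log2 of the day missed the threshold in each (edgeR, adjusted p = 0.928 for Fmod, 0.968 for Thbs1 and 0.944 for Fbln1). It cannot decide on the change of sign, because the ratio was highest at the middle day in each gene. Fmod was higher on the injured side at day 3 (log2 ratio 1.35) and lower at day 1 (-0.61). Thbs1 was higher on the injured side at day 3 (2.31) and lower at day 1 (-0.17). Fbln1 was higher on the injured side at day 3 (0.43) and lower at day 7 (-0.26).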

How the results depend on the processing

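All 40 fitted injury differences kept their sign with RLE factors, DESeq2, limma-voom, no filter, without the no-injury pool and without the day 1 or day 7 pool. The count of members called higher, 22, was 22 with RLE factors, 22 with limma-voom, 31 with DESeq2 (21 of them shared), 8 without a filter, 7 with no replicate block, 9 without the no-injury pool, 0 with a side term, and 11 to 19 when 1 operated pool was left out. Col12a1 turned to -0.037 with no replicate block and -0.182 with a side term. Fmod turned to -0.118 with no replicate block and ran from -0.329 to 0.646 with 1 pool left out. Fbln1 turned to -0.054 with no replicate block and -0.645 with a side term, and ran from -0.091 to 0.272 with 1 pool left out; both were below 0 without the day 3 pool. Leaving out 1 pool moved the count of rising trends to between 0 and 22 and of falling trends to between 0 and 16, with the no-injury sides as the only spread left. The trend then ran from -1.016 to 0.176 for Loxl1, from -0.85 to 0.113 for Col6a3 (both above 0 without the day 7 pool) and from -0.109 to 0.262 for Lama2 (below 0 without the day 1 pool). Against the no-injury pool, contralateral genes called lower (2) numbered 11 without a filter, 4 with DESeq2 and 0 to 14 with 1 library left out, and those called higher (0) numbered 1 without a filter and 0 to 1 with 1 library left out. Injured genes called higher (0) numbered 2 without a filter, 3 with DESeq2, 2 with the no-injury libraries as separate samples and 0 to 13 with 1 library left out. With the no-injury libraries as separate samples, 1 of the 2 contralateral calls was lost. Without a filter 29919 genes were tested for the injury effect, not 16244. The cause of the other shifts was not tested. Of 464 values of single genes under alternatives, 331 kept direction and side of the threshold, 98 lost the call, 25 gained one and 10 changed sign.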
